A study of Mus musculus with 21 samples.

Results

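Chromosomes 2 and 16 were followed as 2 sets of neighbouring genes whose median RNA level differed between mice that carried the same T cell clone. The members were all annotated genes of these chromosomes with a mean of at least 5 CPM, the read count scaled to a common library total, over the 5 wild-type libraries. That gave 715 of the 3778 annotated genes of chromosome 2 and 299 of the 1599 of chromosome 16, together 1014 of the 9022 autosomal genes that passed the same minimum. The level of each member was taken as log2(CPM + 0.5), set against its wild-type mean and centred on the median of all autosomal genes of the library. The chromosomes had been picked because these very values differed between recipients, so the values are given as a description, with no test of the difference. At the edge of the choice, Smim26 on chromosome 2 (5.03 CPM) and Rfc4 on chromosome 16 (5.14 CPM) were kept, while Trib3 (4.97 CPM) and Vasn (4.98 CPM) were not.

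The study asked how gene expression changes in mouse CD4 T cells that lack both TET2 and TET3, and in such cells after passage through new hosts. RNA was sequenced from cells sorted from spleen by flow cytometry. Wild-type cells (WT, 5 libraries) and cells of Tet2-/- Tet3 flx/flx CD4cre mice (DKO, 5 libraries) were CD4+, CD25-, TCRb+ and negative for the aGalCer-CD1d tetramer. TX1 (4 libraries) and TX2 (7 libraries) were CD45.2+ TCRb+ DKO cells sorted from CD45.1+ hosts after a first and a second transplantation. Tet2 is deleted throughout the DKO animal, whereas CD4cre deletes Tet3 in cells that have expressed CD4, and the transplanted cells carry the same alleles. DKO replicates 4 and 5 are labelled young; no age in weeks is given for any group. WT libraries came from males, DKO and TX1 each hold 1 female library, and TX2 holds 3. The labels do not say which donor each transplant came from, and p-values below measure only the spread between these libraries.

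A T cell joins V, D and J segments of its receptor genes and passes the joined genes on when it divides. Descendants of a mature cell thus share its junctions, which work as a natural barcode. A cell and its descendants normally hold each autosome as a pair. When cells gain or lose a chromosome, the RNA of most genes along it tends to move together by a modest amount, while regulation of single genes moves each gene on its own. DNA copy number was not measured here, and a shift of RNA alone cannot be told apart from other changes that act along a chromosome.

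The receptor junctions below show which recipients carried the same clone. They are the leading alpha chain (TRA, chromosome 14) and beta chain (TRB, chromosome 6) sequences of each clone, with the bases between the end of V and the start of J in capitals. A leading TRB of TX1 replicate 2, which stands apart on chromosome 2, is shown with its TRA for comparison.
Clone A TRA: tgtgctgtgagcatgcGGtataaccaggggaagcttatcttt
Clone A TRB: tgtgccagcagtgatacagaagtcttcttt
Clone B TRA: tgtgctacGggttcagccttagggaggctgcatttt
Clone B TRB: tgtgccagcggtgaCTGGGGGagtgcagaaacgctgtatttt
TX1 replicate 2 TRA: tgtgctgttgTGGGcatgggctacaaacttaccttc
TX1 replicate 2 TRB: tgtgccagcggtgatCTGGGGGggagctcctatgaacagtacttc

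Clone A was carried by TX2 replicates 1, 2, 3 and 4. Its TRA junction took between 95.1% and 95.7% of the TRA reads of these libraries, and its TRB junction at least 99.7% of the TRB reads. Clone B was carried by TX1 replicate 3 and TX2 replicates 5, 6 and 7. Its TRA junction held between 83.2% and 88.1% of reads and its TRB junction between 89.3% and 90.6%. Elsewhere the clone A junctions reached at most 0.106% (TRA) and 0.292% (TRB), both in TX1 replicate 4, and the clone B junctions at most 0.0157% and 0.0160%. All 4 clone A libraries are labelled male and all 4 clone B libraries female, so sex does not vary within a clone. The round of transfer does vary within clone B, so pairs of TX1 replicate 3 with a TX2 library also compare a first with a second transfer.

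Depth was even, with 26918548 to 30730877 reads assigned to genes per library. No library pair within a group matched within sampling noise, the closest being TX2 replicates 1 and 2 with a chi-square of 6.502 per gene. WT replicate 5 stood apart from the other WT libraries, with a chromosome 16 median of 0.11 against -0.04 to -0.02, so medians are also given with it left out of the reference. The T cell markers were abundant in every library. Their summed level was 5188, 5197, 7059 and 6282 CPM in TX2 replicates 1 to 4 and 2384, 2470, 2392 and 2272 CPM in TX1 replicate 3 and TX2 replicates 5, 6 and 7. CD8 markers summed to at most 0.424 CPM in any recipient of either clone. Cd4, the coreceptor gene by which WT and DKO cells were sorted, measured 1440 to 1503 CPM in WT and 1111 to 1734 CPM in DKO. It was near absent in both clones, at 2.20, 1.82, 1.01 and 0.624 CPM in TX2 replicates 1 to 4 and 28.02, 1.60, 2.32 and 1.44 CPM in TX1 replicate 3 and TX2 replicates 5, 6 and 7. The labels call the transplanted cells formerly CD4, and CD4 was not part of their sort.

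Chromosome 2 RNA was higher in 2 recipients of clone A than in the other 2. The median shift of its 715 members from WT was 0.23 in TX2 replicate 1, 0.22 in replicate 2, 0.05 in replicate 3 and 0.05 in replicate 4 on the log2 scale. As a linear ratio this is 1.18, 1.16, 1.04 and 1.03 times the WT level. Replicates 1 and 2 lay side by side and well above replicates 3 and 4, which also lay side by side. Leaving WT replicate 5 out of the reference gave 0.23, 0.22, 0.05 and 0.02. The WT libraries themselves ranged from -0.01 to 0.00 and the DKO libraries from 0.01 to 0.04. Relative to WT, other autosomes stood higher in the same recipients. Chromosome 17 was at 0.39, 0.38 and 0.40 in replicates 1, 2 and 3, and chromosome 6 at 0.41 in replicate 4.

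Set directly against each other, without WT in the difference, the recipients of clone A formed the same order. The median of chromosome 2 was 0.16 higher in replicate 1 than in replicate 3 and 0.18 higher than in replicate 4. It was 0.16 higher in replicate 2 than in replicate 3 and 0.16 higher than in replicate 4. These 4 differences correspond to ratios of 1.12, 1.13, 1.12 and 1.12. Replicates 1 and 2 differed by 0.01 and replicates 3 and 4 by 0.00. Between 2 WT libraries the size of the chromosome 2 difference was at most 0.03 over 10 pairs, or 0.01 over the 6 pairs without WT replicate 5, and between 2 DKO libraries at most 0.01.

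Counted by gene, replicate 1 exceeded replicate 3 in 512 of the 715 members (71.6%) and replicate 4 in 550 (76.9%), and replicate 2 exceeded replicate 3 in 507 (70.9%) and replicate 4 in 535 (74.8%). Centring fixes the share of all autosomal genes above 0 at 50.0% in each of the 12 pairs within the clones, and the chromosomes were chosen on these differences, so nothing is read from the counts. Replicate 1 exceeded replicate 2 in 399 members (55.8%), and replicate 3 exceeded replicate 4 in 354 (49.5%). The interquartile range over genes was 0.41 between replicates 1 and 3 and 0.14 between replicates 1 and 2, so single genes varied by more than the median shift.

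**Figure D1:**
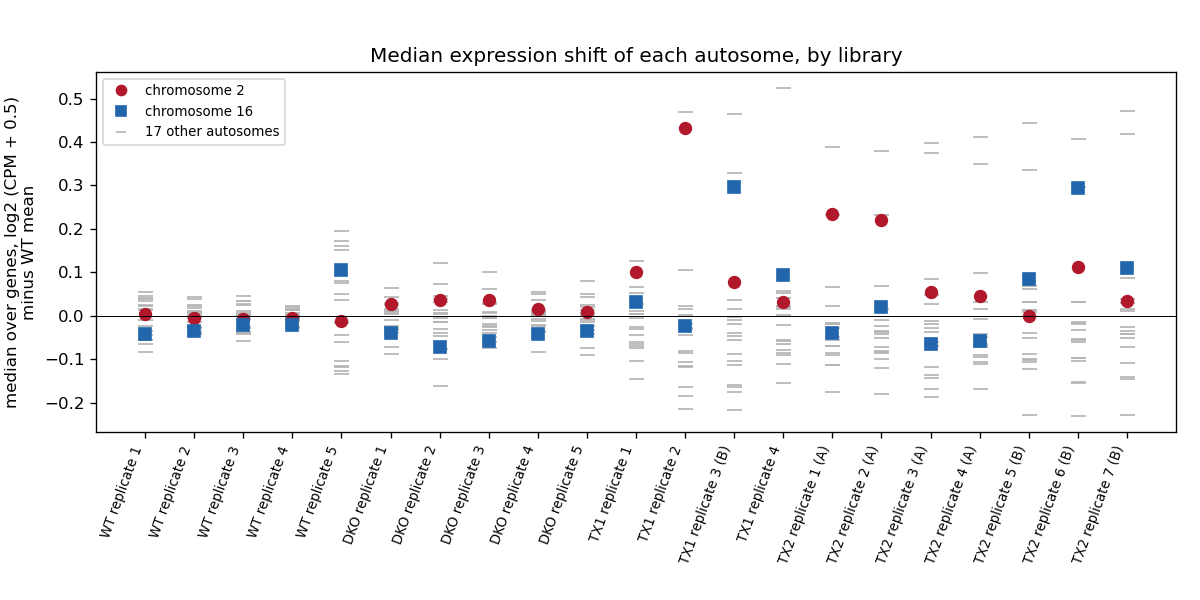
Median over genes of log2(CPM + 0.5) minus the WT mean (vertical axis) for chromosome 2 (red circles), chromosome 16 (blue squares) and each of the 17 other autosomes (grey dashes) in the 21 libraries, with the recipients of clones A and B lettered. Chromosome 2 stands at 0.23 and 0.22 in TX2 replicates 1 and 2 and at 0.05 in replicates 3 and 4; chromosome 16 stands at 0.30 and 0.29 in TX1 replicate 3 and TX2 replicate 6 and at 0.08 and 0.11 in TX2 replicates 5 and 7.

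Chromosome 2 had the widest median difference of the 19 autosomes in each of those 4 pairs of clone A. It was chosen on these differences, so nothing is read from that rank. Chromosome 6 came next and ran the opposite way, with medians of -0.16 for replicate 1 minus 3, -0.17 for 1 minus 4, -0.16 for 2 minus 3 and -0.16 for 2 minus 4. Over the 16 autosomes other than 2, 6 and 16, no median in the pair of replicates 1 and 3 exceeded 0.05 in size, and none exceeded 0.05, 0.08 and 0.03 in the other 3 pairs. Chromosome 16 gave 0.04, -0.01, 0.07 and 0.00 in the same pairs.

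**Figure D2:**
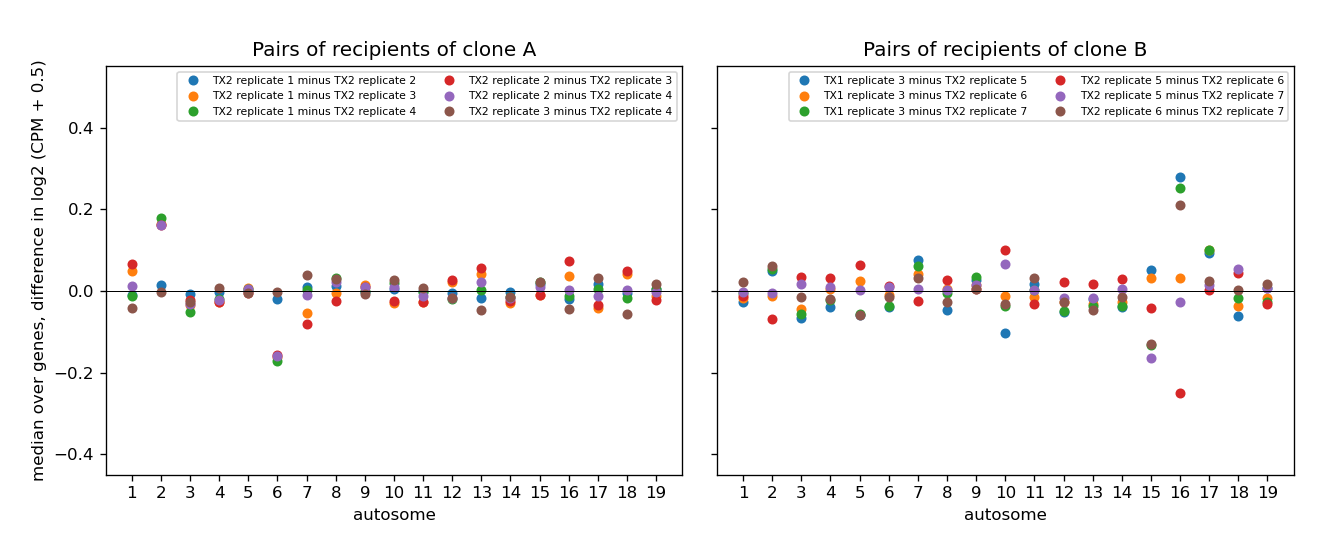
Median over genes of the difference in log2(CPM + 0.5) between 2 recipients (vertical axis) for each of the 19 autosomes (horizontal axis), with 1 colour per pair, for clone A on the left and clone B on the right. Chromosome 2 reaches 0.16 to 0.18 in clone A, where chromosome 6 lies at -0.16 to -0.17, and chromosome 16 reaches 0.28 in clone B.

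Along chromosome 2 the step between the recipients kept its direction in nearly every bin but varied in size. In bins of at least 10 Mb and 20 genes, which gave 15 bins, replicate 1 lay above replicate 4 in 15 of 15 and above replicate 3 in 14 of 15. Replicate 2 lay above replicate 4 in 15 of 15 and above replicate 3 in 14 of 15. Some of these bins were nearly flat. At 0 to 20 Mb replicate 1 minus 4 was 0.03, with 51.2% of 43 genes above 0, and at 40 to 60 Mb it was 0.04. The widest bin difference, 0.31 for replicate 1 minus 4, lay at 20 to 30 Mb, and the exception for both comparisons with replicate 3 was the bin at 170 to 180 Mb, with -0.00 for replicate 1 and -0.04 for replicate 2. No position split the chromosome clearly: the best single split of a clone A recipient against the mean of the other 3 removed at most 1.15% of the absolute deviation.

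The 4 recipients shared the outline of the profile relative to WT. All 4 were low at 60 to 80 Mb, where the bin medians were -0.19, -0.13, -0.50 and -0.41 in replicates 1 to 4. Each was high at 140 to 150 Mb, but that bin was also at 0.44 to 0.47 in clone B and at 0.11 to 0.25 in DKO. Across the 15 bins Pearson's r was 0.97 between replicates 1 and 2, 0.98 between 3 and 4, and 0.91 to 0.93 between a member of one pair and of the other. Between the clones r was 0.72 for TX2 replicates 1 and 5. The bins share libraries, depth and the WT reference, and r is given as a description. Split by WT level into tertiles, replicate 1 minus 3 was 0.13 in the lowest, 0.16 in the middle and 0.19 in the highest. By gene length the same difference was 0.12, 0.20 and 0.19 from the shortest to the longest tertile, whereas replicate 1 minus 4 was 0.22, 0.18 and 0.11.

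**Figure D3:**
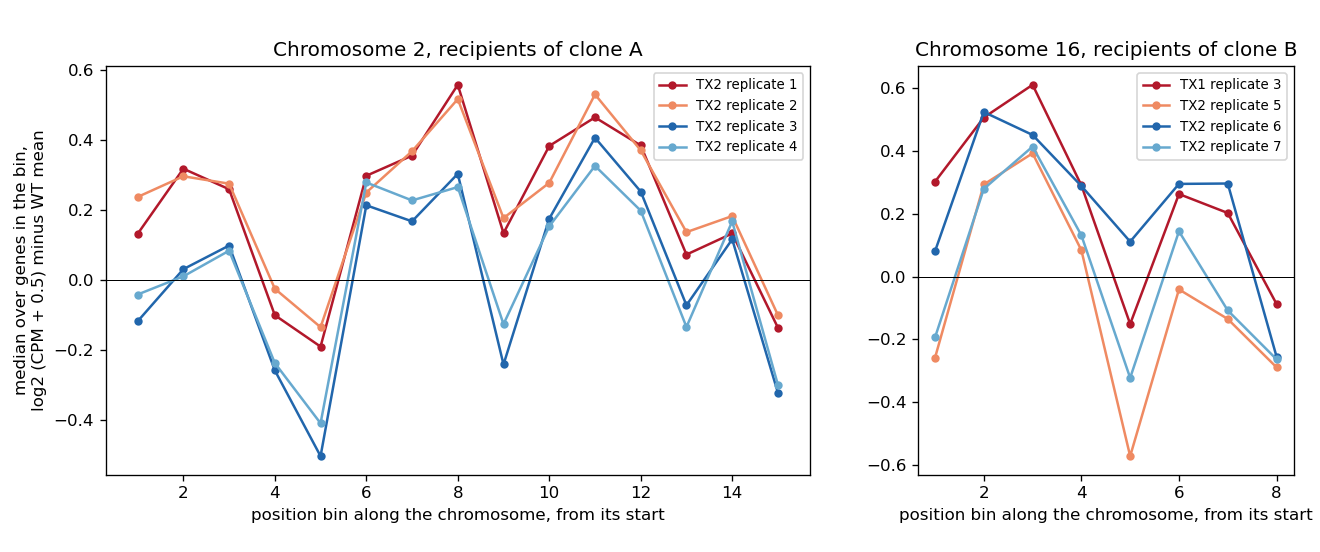
Median shift from WT, log2(CPM + 0.5), in consecutive position bins along chromosome 2 for the recipients of clone A (left, 15 bins) and along chromosome 16 for those of clone B (right, 8 bins), 1 line per recipient. On chromosome 2, replicates 1 and 2 run above 3 and 4 with a shared outline, except that replicate 4 lies above replicate 2 at 80 to 100 Mb and above replicate 1 at 170 to 180 Mb. On chromosome 16, TX1 replicate 3 and TX2 replicate 6 run above TX2 replicates 5 and 7, with replicate 6 close to them at 90 to 100 Mb.

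Signalling genes of chromosome 2 that were higher in replicates 1 and 2 included Rasgrp1 and Il2ra. Rasgrp1 (chr2:117279993-117343001), which activates Ras after T cell receptor engagement, measured 96.5, 82.7, 15.1 and 15.3 CPM in TX2 replicates 1 to 4, against a WT mean of 758 CPM. Its difference was 2.58 for replicate 1 minus 3 and 2.38 for 2 minus 4, and all 4 recipients lay far below WT. Il2ra (chr2:11642807-11693193), the alpha chain of the IL-2 receptor, measured 23.5, 22.6, 6.61 and 5.94 CPM around a WT mean of 12.5 CPM. Replicates 1 and 2 were thus above WT and replicates 3 and 4 below it. Samhd1, a nucleotide hydrolase that limits viral replication, measured 326, 317, 182 and 185 CPM. The integrin chain Itga4, used in homing, measured 195, 194, 103 and 157 CPM, and the pro-apoptotic Bcl2l11 measured 42.9, 41.6, 25.8 and 27.5 CPM. In each of these 5 genes both higher recipients exceeded both lower ones.

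Other signalling genes of the chromosome did not follow. Cd44, an adhesion receptor of activated T cells, measured 294, 301, 288 and 304 CPM, and Gata3, the regulator of the type 2 helper program, measured 186, 184, 193 and 207 CPM. Plcg1, a phospholipase of receptor signalling, was higher in replicates 3 and 4, at 127 and 147 CPM against 114 and 118 CPM. Of the 21 listed T cell and immune genes, 14 were above 0 in replicate 1 minus 3, 14 in 1 minus 4, 15 in 2 minus 3 and 15 in 2 minus 4, with medians of 0.18, 0.20, 0.06 and 0.18. The corresponding shares over all members were 512, 550, 507 and 535 of 715.

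Genes of the cell cycle and of DNA synthesis were mixed. Cdc25b, a phosphatase that promotes entry into mitosis, measured 245, 227, 106 and 119 CPM, and Cdca7, a cofactor of chromatin remodelling in S phase, measured 186, 187, 97.2 and 110 CPM. Pcna, the sliding clamp of DNA polymerase, measured 484, 455, 358 and 356 CPM. All 3 were higher in replicates 1 and 2, but the list as a whole was less even, with 12 of 14 genes above 0 in replicate 1 minus 3 and 7 of 14 in replicate 2 minus 4, and medians of 0.22 and 0.01. Over all members the counts were 512 and 535 of 715. The division markers Mki67, Top2a and Ccnb2, which lie on other chromosomes, summed to 894, 936, 766 and 1047 CPM and did not order the recipients the same way.

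Chromatin genes went both ways. Dnmt3b, a DNA methyltransferase, measured 18.4, 17.9, 8.46 and 8.54 CPM, and Hat1, a histone acetyltransferase, 81.5, 78.8, 57.8 and 57.99 CPM. Ehmt1, a histone H3 lysine methyltransferase, measured 103, 106, 65.9 and 75.4 CPM. Brd3, a reader of acetylated histones, ran the other way with 97.4, 106, 146 and 135 CPM. Of the 11 listed chromatin genes, 8 were above 0 in replicate 1 minus 3 but 5 in replicate 1 minus 4, with medians of 0.42 and -0.00. Over all members the counts were 512 and 550 of 715.

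Among metabolic and structural genes, Vim, an intermediate filament protein, measured 1059, 971, 537 and 508 CPM. Of the 13 listed genes of this kind, 7 were above 0 in replicate 1 minus 3 and 13 in replicate 1 minus 4, beside 512 and 550 of all 715 members. The highly expressed B2m, the light chain of MHC class I, measured 1660, 1642, 1561 and 1319 CPM, and the ribosomal protein gene Rpl12 measured 1972, 1919, 2210 and 1865 CPM. B2m was higher in both of replicates 1 and 2 than in either of the others, and Rpl12 was not. By the rule for the widest differences, Atp8b4 (106, 107, 33.1 and 44.0 CPM), a phospholipid flippase, and Nebl (116, 113, 48.9 and 58.2 CPM), an actin-binding protein, were higher in replicates 1 and 2. Casc4 was higher in replicates 3 and 4, with 21.9, 24.7, 30.4 and 43.9 CPM.

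Markers of other cells were summed in the same libraries. Macrophage markers summed to 2.23, 2.28, 12.7 and 7.78 CPM in TX2 replicates 1 to 4, NK markers to 141, 118, 72.1 and 69.5 CPM, B cell markers to between 0.624 and 1.13 CPM, neutrophil markers to at most 0.456 CPM and red cell markers to at most 8.70 CPM. The NK sums, which hold only 2 genes, were higher in replicates 1 and 2, as the chromosome 2 median was. The T cell and macrophage sums were lower there. The part of these cells in the median was not tested.

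Chromosome 16 gave the corresponding pattern in clone B. The median shift of its 299 members from WT was 0.30 in TX1 replicate 3, 0.08 in TX2 replicate 5, 0.29 in replicate 6 and 0.11 in replicate 7, or 1.23, 1.06, 1.23 and 1.08 times the WT level. The first-transfer library and TX2 replicate 6 were alike, and TX2 replicates 5 and 7 were lower. Without WT replicate 5 in the reference the values were 0.32, 0.08, 0.32 and 0.09. WT libraries other than replicate 5 ranged from -0.04 to -0.02 and DKO libraries from -0.07 to -0.04. Relative to WT, chromosome 17 stood higher, at 0.46 in TX1 replicate 3 and at 0.44 and 0.41 in TX2 replicates 5 and 6. In TX2 replicate 7 chromosome 15 was highest, at 0.47. With a minimum of 20 CPM in WT the 4 medians were 0.26, 0.00, 0.22 and 0.00.

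Between recipients, the median of chromosome 16 was 0.28 higher in TX1 replicate 3 than in TX2 replicate 5 and 0.25 higher than in replicate 7. TX2 replicate 6 exceeded replicate 5 by 0.25 and replicate 7 by 0.21. The ratios were 1.21, 1.19, 1.19 and 1.16. TX1 replicate 3 differed from TX2 replicate 6 by 0.03, and TX2 replicate 5 from replicate 7 by -0.03. Pairs of WT libraries differed by at most 0.13, or 0.04 without WT replicate 5, and pairs of DKO libraries by at most 0.03.

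Counted by gene, TX1 replicate 3 exceeded TX2 replicate 5 in 218 of 299 members (72.9%) and replicate 7 in 212 (70.9%), beside the 50.0% of autosomal genes that centring sets. TX2 replicate 6 exceeded replicate 5 in 245 members (81.9%) and replicate 7 in 241 (80.6%). Chromosome 16 had the widest median of the 19 autosomes in each of these 4 pairs. It was chosen on these differences, so nothing is read from that rank. Chromosome 15 was next in the comparisons with replicate 7, at -0.13 for TX1 replicate 3 and -0.13 for TX2 replicate 6, because it was higher in replicate 7. Chromosome 2 differed less in clone B, with medians of 0.05, 0.05, 0.07 and 0.06 in the same 4 pairs when the higher library on chromosome 16 is taken first.

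Along chromosome 16 the step covered the proximal and middle parts and changed near the distal end in TX2 replicate 5 and in TX1 replicate 3. In 8 bins, TX2 replicate 6 lay above replicates 5 and 7 in 8 of 8. TX1 replicate 3 lay above replicate 7 in 8 of 8 and above replicate 5 in 7 of 8. In the last bin, at 90 to 100 Mb, TX1 replicate 3 minus TX2 replicate 5 was -0.00, and TX2 replicate 5 exceeded replicate 7 by 0.17. In that bin TX2 replicate 5 was thus level with TX1 replicate 3 and above replicate 7, but lay 0.09 below replicate 6. Its bin median from WT, -0.29, was the lowest of the 4, beside -0.09 in TX1 replicate 3, -0.25 in replicate 6 and -0.26 in replicate 7.

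A single split described TX2 replicate 5 better than any other recipient of its clone on chromosome 16. Against the mean of the other 3 recipients its median was -0.22 over 243 genes that start up to position 76287400 and 0.04 over the 56 that start from 76403251. For TX1 replicate 3 the best split gave 0.22 over 247 genes and -0.03 over the 52 that start from 84717576, a change of similar size in the other direction, though each of these libraries is part of the mean the other is set against. The split of TX2 replicate 5 removed 4.91% of the absolute deviation, compared with 0.98% to 1.90% for the best splits of the other 3 recipients. On the proximal side TX2 replicate 5 minus replicate 7 was -0.05 with 78 of 243 genes above 0, and on the distal side 0.17 with 45 of 56. TX2 replicate 6 exceeded replicate 7 on both sides, by 0.20 and 0.25. TX1 replicate 3 exceeded replicate 7 by 0.28 proximally and 0.12 distally. The split position was picked to fit these values, the genes between 60 and 90 Mb are few (25 in that bin), and no test applies.

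The profile along the chromosome was shared only in part by the 4 recipients of clone B. The bins at 10 to 20 and 20 to 30 Mb were high in all 4. The bin at 40 to 50 Mb was the lowest in TX1 replicate 3 and TX2 replicates 5 and 7, at -0.15, -0.57 and -0.32. In TX2 replicate 6 that bin was at 0.11, and its lowest bin lay at 90 to 100 Mb. The DKO libraries lay at -0.47 to -0.19 in the bin at 40 to 50 Mb, and the WT libraries ran from -0.30 to 0.50. Pearson's r over the 8 bins ranged from 0.75 between TX2 replicates 5 and 6 to 0.96 between TX2 replicates 5 and 7, as a description. Between the clones it was 0.83 for TX2 replicates 1 and 5, so the outline was about as alike there. The difference was larger for genes with higher WT levels, at 0.21, 0.25 and 0.28 from the lowest to the highest tertile for TX2 replicate 6 minus 5, and 0.21, 0.29 and 0.35 for TX1 replicate 3 minus TX2 replicate 5. By gene length the second of these was 0.23, 0.27 and 0.37.

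Several T cell and immune genes of chromosome 16 were higher in TX1 replicate 3 and TX2 replicate 6. Cd96 (chr16:46035657-46120251), a receptor for nectins on T and NK cells, measured 142 CPM in TX1 replicate 3 and 14.6, 111 and 43.4 CPM in TX2 replicates 5, 6 and 7. Ifngr2 (chr16:91547072-91565623), the second chain of the interferon gamma receptor, measured 30.2, 5.06, 21.7 and 11.5 CPM in the same order. In both genes TX2 replicate 5 was lowest and all 4 recipients lay below the WT means of 260 and 79.8 CPM. Ifngr2 lies beyond the split of TX2 replicate 5 and was low there all the same. Hcls1, an actin regulator of blood cells, measured 714, 265, 487 and 352 CPM, and Runx1, a transcription factor of T cell development, measured 92.4, 54.1, 97.9 and 54.2 CPM.

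Tigit (chr16:43648867-43664146), an inhibitory receptor that shares ligands with Cd96, ran the opposite way. It measured 4.72, 117, 29.3 and 149 CPM, so that the recipients with the lower chromosome 16 median held the higher Tigit level. Bcl6, the regulator of follicular helper cells, measured 30.5, 50.3, 23.4 and 74.6 CPM, and Ets2, a transcription factor, 65.9, 225, 130 and 190 CPM. These 3 genes and the shift of the chromosome as a whole went in opposite directions in each of the 4 pairs. Alcam, an adhesion molecule, measured 34.6, 65.7, 45.4 and 63.3 CPM and did the same. Cd200, a ligand that restrains myeloid cells, was low in TX1 replicate 3 alone, at 60.6 CPM against 143, 161 and 146 CPM.

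The neighbouring interferon-response genes Parp14, Dtx3l and Parp9 were higher in the recipients with the higher median. Parp14, an ADP-ribosyltransferase, measured 100.1, 32.7, 57.1 and 43.1 CPM in TX1 replicate 3 and TX2 replicates 5, 6 and 7. Dtx3l, a ubiquitin ligase that partners Parp9, measured 114, 50.5, 78.5 and 57.5 CPM, and Parp9 measured 87.7, 43.9, 69.0 and 51.2 CPM. The first chain of the type I interferon receptor, Ifnar1, measured 98.7, 68.8, 87.7 and 64.9 CPM, and the second, Ifnar2, 38.01, 25.3, 34.9 and 32.8 CPM. Of the 28 listed T cell and immune genes, 15 were above 0 in TX1 replicate 3 minus TX2 replicate 5, 17 in TX1 replicate 3 minus TX2 replicate 7, 18 in TX2 replicate 6 minus 5 and 20 in 6 minus 7, with medians of 0.29, 0.27, 0.36 and 0.30. Over all members the counts were 218, 212, 245 and 241 of 299. The chromosome was chosen on these differences, so nothing is read from the counts.

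Replication genes of chromosome 16 did not share an order of recipients. Mcm4, a subunit of the replicative helicase, measured 352, 346, 349 and 382 CPM, and its neighbour Prkdc, the catalytic subunit of DNA-dependent protein kinase, 62.0, 42.0, 51.7 and 46.6 CPM. Cdc45, which joins that helicase, measured 62.5, 93.4, 101 and 97.9 CPM and was lowest in TX1 replicate 3. Of the 10 listed genes, 7 were above 0 in TX2 replicate 6 minus 5 and 4 in TX1 replicate 3 minus TX2 replicate 5, with medians of 0.16 and -0.19. Over all members the counts were 245 and 218 of 299.

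Among chromatin and housekeeping genes, Crebbp, a histone acetyltransferase, measured 90.7, 55.8, 74.5 and 55.7 CPM, and Hlcs, the ligase that attaches biotin, 45.1, 22.9, 35.8 and 21.6 CPM. Both were higher in TX1 replicate 3 and TX2 replicate 6. The translation factor Eif4a2 measured 310, 180, 267 and 193 CPM and the ribosomal protein gene Rpl35a 553, 343, 417 and 358 CPM, in the same order of recipients. These genes were picked from lists of 10 chromatin and 12 housekeeping genes, whose counts between recipients are not given here, so they do not stand for the lists. Of 2 genes near the distal end, Sod1, a superoxide dismutase, measured 224, 205, 235 and 190 CPM, and Son, a splicing cofactor, 573, 525, 589 and 472 CPM, with TX2 replicate 7 lowest in both, whereas Hlcs, Ets2, Runx1 and Ifngr2 also start beyond 90 Mb and differed by more.

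**Figure D4:**
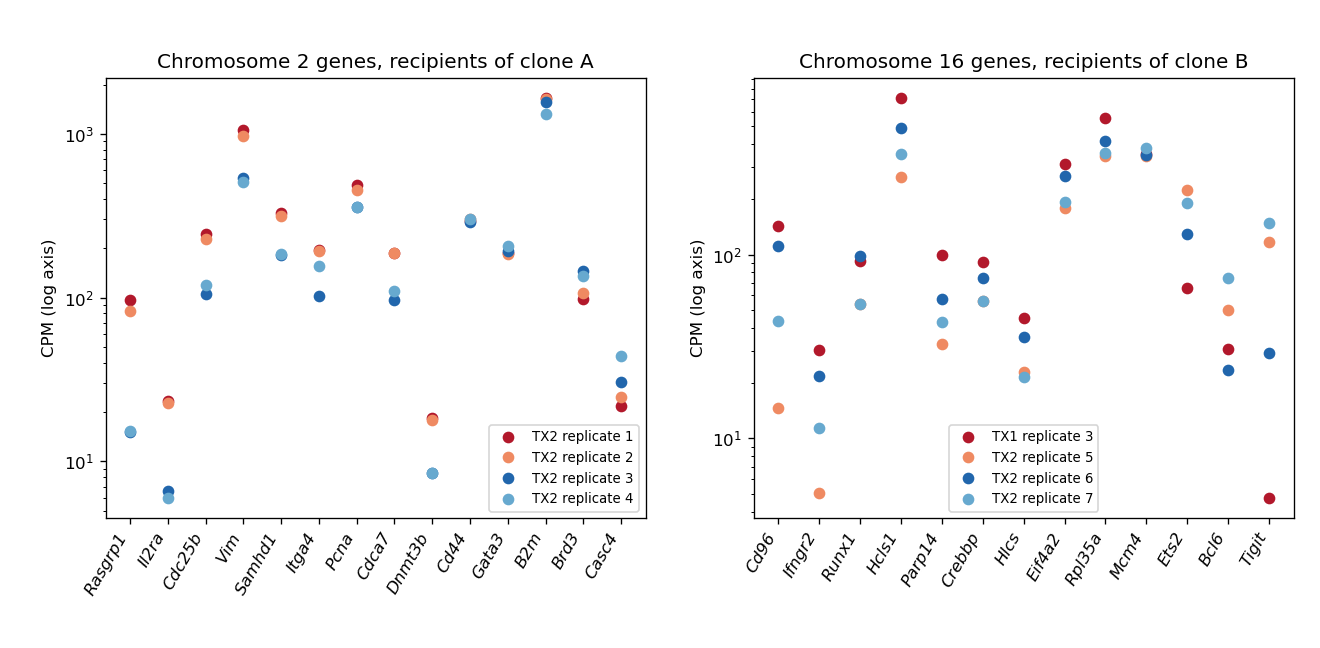
CPM on a log axis for named genes of chromosome 2 in the 4 recipients of clone A (left) and of chromosome 16 in the 4 recipients of clone B (right), 1 point per library. Rasgrp1 lies in pairs at 96.5 and 82.7 against 15.1 and 15.3 CPM; Cd96 ranges from 14.6 to 142 CPM, and Tigit has the opposite order of recipients.

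Markers of other cells varied in clone B. B cell markers summed to 0.524 CPM in TX1 replicate 3 and 39.5, 107 and 77.4 CPM in TX2 replicates 5, 6 and 7. Macrophage markers summed to 1.78, 54.9, 46.0 and 69.1 CPM, neutrophil markers to 0, 42.3, 79.6 and 32.0 CPM, and red cell markers to 0.908, 14.6, 32.8 and 535 CPM. TX1 replicate 3 was lowest for each of these. Among the TX2 recipients, replicate 6 was highest for B cell and neutrophil markers and lowest for macrophage markers, and replicate 7 was highest for macrophage and red cell markers; the part of these cells in the median was not tested. NK markers summed to 224, 20.1, 144 and 42.4 CPM and did follow the median, as in clone A on chromosome 2. The sum holds only 2 genes, Ncr1 and Klrb1c, and Ncr1 was below 1 CPM in every TX1 library. In TX1 replicate 3 it thus rests on Klrb1c. The part of NK cells in the median was not tested.

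The other first-transfer libraries carried other clones. TX1 replicate 2 had a chromosome 2 median of 0.43, or 1.35 times the WT level, with 14 of 15 bins and 72.2% of members above WT. That exceeds the 0.23 of TX2 replicate 1, while its chromosome 16 median was -0.02. Chromosome 17 stood higher still in TX1 replicate 2, at 0.47. TX1 replicates 1 and 4 had chromosome 2 medians of 0.10 and 0.03 and chromosome 16 medians of 0.03 and 0.09. Chromosome 2 was thus high in 1 clone with a single library and in part of the recipients of another. For scale, a change in the ratio of 3 to 2 is 0.58 in log2 units, above every whole-chromosome median reported here. In bulk RNA, a smaller change in all cells and a larger change in part of the cells cannot be told apart.

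Between the groups, members of both chromosomes were called in each comparison by edgeR's quasi-likelihood test at a Benjamini-Hochberg adjusted p below 0.05 over all genes. In DKO against WT, 305 of 715 members of chromosome 2 (143 higher, 162 lower) and 135 of 299 of chromosome 16 (57 higher, 78 lower) passed, beside 43.4% of all 13700 genes tested (22.7% higher, 20.7% lower). In TX1 against DKO, 146 (121 higher, 25 lower) and 84 (60 higher, 24 lower) passed, beside 19.7% of 13954 (11.7% higher, 7.97% lower). In TX2 against DKO, 368 (204 higher, 164 lower) and 180 (99 higher, 81 lower) passed, beside 51.7% of 14034 (25.6% higher, 26.1% lower). The members were selected for their WT level and the chromosomes for values in these transplants, so nothing is read from the shares. The comparisons of TX1 and of TX2 share the DKO libraries, and the 7 TX2 libraries hold 2 clones, so that p-values that treat them as independent are too small.

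The count for TX1 depended on the make-up of that group. It was 265 and 134 without TX1 replicate 1, and 85 and 52 without TX1 replicate 2, the library with the high chromosome 2. Without TX1 replicate 3, the clone B library, it was 80 and 31, and without replicate 4 it was 117 and 45. Leaving out a DKO library gave 67 to 133 on chromosome 2 and 37 to 70 on chromosome 16. In TX2 against DKO no single library changed the counts by more than 1.5 times.

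Cell cycle genes of chromosome 2 were mostly higher in DKO than in WT cells, and those of chromosome 16 less evenly so. Of the 14 listed cell cycle genes of chromosome 2, 13 rose and 0 fell in DKO against WT, and of the 10 of chromosome 16, 5 rose and 1 fell. Their median log2 differences were 2.25 and 0.52, against -0.01 over all genes tested. Their called shares were 92.9% and 60%, beside 43.4% of all genes tested. Cdc25b rose from 77.9 ± 8.59 to 370 ± 65.1 CPM (SD, n = 5 each, log2 difference 2.25 ± 0.13 SE, adjusted p = 4.4e-06 by edgeR), higher in all 5 DKO libraries than in any WT library. In TX2 against DKO, 8 of 14 and 6 of 10 rose while 1 and 2 fell. These calls made up 64.3% and 80% of the lists, beside 51.7% of all genes tested. Pcna rose from 233 ± 50.1 CPM (n = 5) to 458 ± 61.9 CPM (n = 7) with a log2 difference of 0.97 ± 0.15 (edgeR adjusted p = 0.00022), whereas Cdc25b fell by 0.70 ± 0.27 (edgeR adjusted p = 0.043), a call lost in 10 of the alternative fits.

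Signalling genes moved both ways in DKO, and most of those called in TX2 against DKO were lower in TX2. In DKO against WT, 2 of the 21 listed T cell and immune genes of chromosome 2 rose and 5 fell, and 11 of 28 rose and 8 fell on chromosome 16. These calls made up 33.3% and 67.9% of the lists, beside 43.4% of all genes tested. Rasgrp1 fell from 768 ± 76.2 to 331 ± 93.9 CPM (n = 5 each, log2 difference -1.22 ± 0.20, edgeR adjusted p = 0.00070), and Ifngr2 fell from 80.9 ± 6.84 to 22.01 ± 7.63 CPM (-1.88 ± 0.22, edgeR adjusted p = 0.00011). Itga4 rose by 0.99 ± 0.17 (edgeR adjusted p = 0.00080). In TX2 against DKO, 0 of 21 rose and 10 fell on chromosome 2, and 2 of 28 rose and 14 fell on chromosome 16. The called shares were 47.6% and 57.1%, beside 51.7% of all genes tested (25.6% higher, 26.1% lower). Itga4 fell from 1232 ± 168 CPM (n = 5) to 298 ± 203 CPM (n = 7) with a log2 difference of -2.05 ± 0.40 (edgeR adjusted p = 0.0012), and every TX2 library was below every DKO library. Chromatin genes split evenly in TX2 against DKO, with 4 of 11 rising and 4 falling on chromosome 2 and 3 of 10 each way on chromosome 16. Their called shares were 72.7% and 60%, beside the 51.7% of all genes tested.

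The group averages hide the difference between recipients. Rasgrp1 ranged from 15.1 to 523 CPM over the 7 TX2 libraries with a median of 96.5 CPM, being lower in all 4 recipients of clone A than in the 3 of clone B. Cd96 fell in TX2 against DKO by 1.16 ± 0.44 (edgeR adjusted p = 0.044), a call lost in 11 of the alternative fits, while its TX2 values ran from 14.6 to 111 CPM, both of them in clone B.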

How the data were processed

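Counts per gene were deposited by the authors as whole numbers in the layout of STAR for 55487 genes in 21 libraries, and 55227 identifiers matched GENCODE M21 on GRCm38. Tools listed in the submitters' processing notes are STAR 2.7.5a, fastp 0.21.0 and DESeq2, with GRCm38 and mm10 as builds and no order or role. The unstranded count column was used, since the strand columns were nearly equal (median share of the larger 0.507). Lines that name no gene, such as unmapped or ambiguous reads, held 16.8 to 23.4% of reads and were left out. Reads with several places in the genome are set aside in such files, so genes with near-identical copies are uncertain.

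The clonotype tables deposited by the authors hold counts of reads per receptor junction for 1 chain, and the sources used here do not give their tool. TRB tables of 3 libraries were not analysed here. Shares were taken over the reads of the chain.

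CPM, shifts from WT and their medians over genes, bins and pairs of recipients were computed in Python 3.11.15 with pandas 2.3.3. Centring used the median of all 9022 autosomal genes that passed. Bins of 10 Mb were joined until each held 20 genes. Only the libraries of the groups compared entered each fit, which used edgeR 4.0.16 under R 4.3.3 with filterByExpr, TMM factors and the robust quasi-likelihood test, two-sided. Mean CPM beside a fold change uses the TMM factors of that comparison, and the error given beside a log2 difference is its standard error. DESeq2 1.42.0 was an alternative. The steps were tested on simulated data.

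Members, gene lists and tests were chosen with earlier results of these data known. Named genes are listed members on these chromosomes, the 6 with the highest WT level and the 4 widest differences of 1 recipient each way, a selection of which is named. Replicate numbers were not used to pair the samples, because no label says that they do. The deviations of same-numbered libraries from their group means correlated at -0.05 to 0.41 in DKO against WT. The range was -0.16 to 0.27 in TX1 against DKO and -0.11 to 0.16 in TX2 against DKO. These values do not settle whether same-numbered libraries belong together. Alternatives and their effects are given in the closing section.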

Additional observations from a re-analysis of the deposited data

Results flagged for a closer look

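Among 96 groups of 4 to 7 libraries, 12 held 1 library whose distance from its nearest neighbour was large for the range of the group, where chance gives about 1 in 20. The chromosome 2 median of TX1 replicate 2 was 0.43, against 0.03 to 0.10 in the other 3 TX1 libraries. The chromosome 16 median of WT replicate 5 was 0.11, against -0.04 to -0.02 in the other 4 WT libraries. Hcls1 in the same WT library was at 99.8 CPM, against 251 to 306 CPM.

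DKO replicate 2 was high in 4 named genes of chromosome 16, with Tigit at 275 CPM (41.1 to 77.3 in the other 4 DKO libraries), Bcl6 at 242 CPM (55.6 to 99.2), Cd200 at 253 CPM (133 to 151) and Alcam at 441 CPM (56.7 to 90.9). In that library the leading junction held 77.9% of TRA and 77.8% of TRB reads. TX1 replicate 1 was high in the same 4 genes, with Tigit at 175 CPM (0.0354 to 4.72 in the other 3 TX1 libraries), Bcl6 at 256 CPM (6.66 to 30.5), Cd200 at 322 CPM (48.6 to 60.6) and Alcam at 478 CPM (27.4 to 42.6). It was low in Rasgrp1 on chromosome 2, at 121 CPM against 270 to 295 CPM.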

How the results depend on the processing

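Direction was followed in the alternatives only for a selection of the named genes that were called, and it reversed in none of them. Of 486 alternative values for these genes, 440 kept the call and 46 lost it. The other called members were not followed. Of 192 alternative values for the chromosome medians between recipients, 188 moved by less than the spread between recipients of the clone, and of 308 for the medians from WT, 304 moved by less than the spread of the group. That spread is made up of the differences described here, so this is a loose measure. For the medians from WT it was 0.18 for chromosome 2 in TX1 and 0.13 for chromosome 16 in TX2. With a minimum of 20 CPM in WT, the chromosome 16 medians of TX2 replicates 1 to 4 were -0.18, -0.18, -0.28 and -0.21. The chromosome 2 bins above 0 were then 7 in TX1 replicate 3, 4 in TX2 replicate 5 and 3 in TX2 replicate 7, and the chromosome 16 bins 4 in TX2 replicate 6. With a trimmed mean the chromosome 16 bins of TX2 replicate 3 were 1. With TMM factors and no centring, chromosome 2 gave -0.0088 for TX2 replicate 5 minus 6, and chromosome 16 gave 0.11 for replicate 1 minus 3, 0.16 for 2 minus 3 and 0.047 for 2 minus 4. The cause was not tested.

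The replicate block left 1 and 3 members of chromosomes 2 and 16 called in TX1 against DKO, although the numbers do not pair these samples by any label. The block gave 288 and 128 in DKO against WT and 304 and 145 in TX2 against DKO. Leaving out 1 library gave 67 to 265 and 31 to 134 in TX1 against DKO, 243 to 326 and 111 to 141 in DKO against WT, and 328 to 378 and 155 to 174 in TX2 against DKO. The closest libraries of a group differed by a chi-square of 6.502 per gene, so counting noise was the smaller part of their spread.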
